A study of Mus musculus with 7 samples.

Results

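The Mef2 transcription factors, the class IIa histone deacetylases and a pair of histone acetyltransferases were followed in growing mouse muscle. The members were chosen by name from the gene symbols of the count table: Mef2a, Mef2c, Mef2d, Hdac4, Hdac5, Hdac7, Hdac9, Ep300 and Crebbp, which makes 9 of 49568 symbols. All 9 passed the filter on low counts, as did 14976 genes in all. RNA came from the gastrocnemius, a calf muscle made mostly of fast fibers, of C57BL/6J males. There were 2 mice aged 4 weeks, 2 aged 6 weeks and 3 aged 8 weeks, with 1 library from each. No agent or altered allele is given for the mice of 4 and 6 weeks. The titles of the 8-week libraries mark those mice as numbered controls, a word the study's methods also use for littermates without the inducible Cre recombinase in experiments with tamoxifen. Nothing states that the 8-week mice belonged to those experiments, so their origin and their age cannot be told apart. P-values below set differences against the spread among these single mice, estimated for each gene with information shared across genes.

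Mef2 proteins bind the control regions of muscle genes together with myogenic factors and switch on contractile and metabolic genes. Class IIa deacetylases bind Mef2 in the nucleus and repress its targets. Calcium-activated and related kinases phosphorylate them, which lets chaperones of the 14-3-3 family hold them in the cytoplasm and frees Mef2 to recruit the acetyltransferases p300 and CBP, the products of Ep300 and Crebbp. This axis is best known in muscle for linking nerve activity to fiber type and for the response of muscle to the loss of its nerve.

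Depth ranged from 30836057 to 41784144 counts per library, and 198 to 18173 counts fell on each member in a library. A single mitochondrial ribosomal RNA, mt-Rnr2, took 25.1% of the counts in 8-week replicate 2, the lowest share, and 37.4% in replicate 3, the highest. In 8-week replicate 1 its share was 36.1%. The part of this RNA in the differences between settings was not tested. Levels are given as CPM, counts relative to the library size after TMM scaling. Markers of fast fibers summed to between 71987 and 96365 CPM in every library. Markers of lymphocytes summed to at most 0.318 CPM, and none of the 5 could be tested. The 8-week libraries differed in immediate early and slow fiber genes, which were higher in replicate 2 than in replicates 1 and 3. On the log2 scale, the median of 13 immediate early and heat shock genes in replicate 2 lay 0.21 above its mean over libraries. It was −0.80 and −1.52 in replicates 1 and 3. At 4 weeks it was −0.09 and 0.55, and at 6 weeks 0.75 and 0.40, so replicate 2 lay within the range of the younger mice. The median of 7 slow fiber genes was 0.17 in replicate 2 and −0.69 and −0.60 in replicates 1 and 3. It was 0.04 to 0.44 at 4 and 6 weeks. Results that rest on 8-week replicate 2 are given with and without it.

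The 9 genes lie on separate stretches of 8 chromosomes. On the GRCm38 build the GENCODE annotation places Mef2a at chr7:67231163-67372858 (minus strand), Mef2c at chr13:83504034-83667080 (plus), Mef2d at chr3:88142372-88172086 (plus), Hdac4 at chr1:91928779-92195699 (minus), Hdac5 at chr11:102194432-102230166 (minus), Hdac7 at chr15:97792664-97844502 (minus), Hdac9 at chr12:34047580-34917095 (minus), Ep300 at chr15:81585351-81652077 (plus) and Crebbp at chr16:4081328-4213997 (minus). All are protein-coding genes, and the counting was specific to the strand. The only genes with exons over theirs on the same strand were Mir8101 in Hdac5 and Gm23880 in Ep300, each with 0 counts in all libraries.

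The start regions of the 5 members called higher at both later ages are shown. These genes were picked by their calls in these data, and a shared control of them was not tested. The sequences are from RefSeq (GRCm38.p6), 250 bases before to 50 bases after the annotated start, and capitals mark the GC box, GGGCGG on either strand, which Sp-family factors bind. Each of these 5 genes has 1 such region in the table, and the RefSeq starts of Hdac4, Ep300 and Crebbp lie inside the span that GENCODE gives the gene.
Hdac4 (chr1:92180292-92180591, minus strand): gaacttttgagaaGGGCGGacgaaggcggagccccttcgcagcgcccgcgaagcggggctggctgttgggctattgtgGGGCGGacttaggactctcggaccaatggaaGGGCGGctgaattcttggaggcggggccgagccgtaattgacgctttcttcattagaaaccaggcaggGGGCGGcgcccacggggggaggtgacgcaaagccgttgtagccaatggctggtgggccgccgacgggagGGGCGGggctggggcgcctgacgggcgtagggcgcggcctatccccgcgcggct
Hdac5 (chr11:102230123-102230422, minus strand): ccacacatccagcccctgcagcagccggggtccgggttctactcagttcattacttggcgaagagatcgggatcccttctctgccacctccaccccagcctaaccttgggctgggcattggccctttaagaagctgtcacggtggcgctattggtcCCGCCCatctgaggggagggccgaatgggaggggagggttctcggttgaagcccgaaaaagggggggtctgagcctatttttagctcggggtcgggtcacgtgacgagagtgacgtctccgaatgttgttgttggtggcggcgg
Mef2d (chr3:88142122-88142421, plus strand): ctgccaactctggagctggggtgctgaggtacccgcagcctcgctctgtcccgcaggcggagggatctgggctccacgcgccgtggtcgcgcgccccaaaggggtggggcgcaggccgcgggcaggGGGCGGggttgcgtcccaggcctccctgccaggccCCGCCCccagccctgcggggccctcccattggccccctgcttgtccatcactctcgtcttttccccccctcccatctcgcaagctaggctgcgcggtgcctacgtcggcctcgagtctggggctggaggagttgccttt
Ep300 (chr15:81585964-81586263, plus strand): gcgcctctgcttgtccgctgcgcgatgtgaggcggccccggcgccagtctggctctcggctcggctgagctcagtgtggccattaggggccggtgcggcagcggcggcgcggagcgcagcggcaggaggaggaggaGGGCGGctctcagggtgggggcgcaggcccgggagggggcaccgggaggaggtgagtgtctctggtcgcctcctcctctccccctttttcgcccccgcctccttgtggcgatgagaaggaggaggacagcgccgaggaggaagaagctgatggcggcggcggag
Crebbp (chr16:4213355-4213654, minus strand): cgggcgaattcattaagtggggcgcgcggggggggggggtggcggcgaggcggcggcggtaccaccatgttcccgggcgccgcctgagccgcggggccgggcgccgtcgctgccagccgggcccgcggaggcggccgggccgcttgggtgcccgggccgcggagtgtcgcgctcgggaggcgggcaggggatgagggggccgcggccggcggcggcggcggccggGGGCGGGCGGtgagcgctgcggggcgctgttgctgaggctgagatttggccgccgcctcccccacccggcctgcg

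GC boxes numbered 5 in Hdac4, 2 in Mef2d, 2 overlapping ones in Crebbp, 1 in Hdac5 and 1 in Ep300. At least 1 was found in 35.7% of the 32851 promoters of the table, and the single Mef2a region held 0. Members without a call held the box too, 1 in 1 of the 3 regions of Mef2c and 1 in 1 of the 4 of Hdac7, while the 2 regions of Hdac9 held 0. That Hdac7 region had 73.7% G and C and 31 CG pairs, within the range of the regions printed above. The 5 printed regions were rich in G and C, from 60.7% in Hdac5 to 82.0% in Crebbp, and held 18 to 49 CG pairs, where the median promoter had 52.7% and 7 pairs. Only 29.5% of all promoters had 60% G and C or more. The 35.7% with a GC box covers promoters of every G and C content, so it is no matched background for these regions. None had a TATAAA box, a motif found on either strand in 13.6% of all promoters. The CRE core TGACG, recognized by Creb, occurred 3 times in Hdac4 and 2 times in Hdac5, against at least 1 time in 20.8% of all promoters. A match to letters is a description and shows no binding.

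The MEF2 consensus itself, searched on both strands with overlapping matches taken as 1 site, was present in the single regions of 2 members, Mef2a and Hdac5, and in 1.86% of all promoters. Both sites are shown with 10 bases on each side and the site in capitals.
Mef2a (chr7:67372841-67372870, minus strand): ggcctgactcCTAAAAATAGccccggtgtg
Hdac5 (chr11:102230173-102230202, minus strand): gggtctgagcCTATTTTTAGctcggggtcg
The Mef2a site began 2 bases before the annotated start, and the Hdac5 site began 20 bases before it.

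Mef2d was the only Mef2 gene called higher than at 4 weeks under the main settings, and the Mef2 genes were not tested against each other. Its level was 38.8 CPM and 39.0 CPM in the 4-week mice, 71.9 CPM and 54.1 CPM in the 6-week mice, and 49.8, 52.7 and 69.6 CPM in the 8-week mice. Every older mouse stood above both 4-week mice, and the 6- and 8-week values overlapped. The change was 1.62-fold from 4 to 6 weeks (log2 0.69 ± 0.17 SE, adjusted p = 0.0346, edgeR quasi-likelihood test) and 1.47-fold from 4 to 8 weeks (0.56 ± 0.16, adjusted p = 0.0315). Mef2d is broadly expressed, and an isoform of it made in muscle is known for late differentiation. Isoforms cannot be separated in counts per gene.

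Mef2c, needed for sarcomere integrity after birth, was the most abundant member. It was at 385 and 363 CPM at 4 weeks, 436 and 407 CPM at 6 weeks, and 490, 375 and 517 CPM at 8 weeks. The 6-week mice both exceeded the 4-week mice, whereas 8-week replicate 2 lay between the 4-week values. Neither difference from 4 weeks passed the test (log2 0.17 ± 0.15, adjusted p = 0.529 at 6 weeks and 0.30 ± 0.13, adjusted p = 0.145 at 8 weeks). Without 8-week replicate 2 the 8-week difference was 0.42 with an adjusted p of 0.0183.

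Mef2a followed the same order. Its level was 87.8 and 87.6 CPM at 4 weeks, 112 and 95.2 CPM at 6 weeks, and 112, 96.9 and 131 CPM at 8 weeks. Every older mouse was above both 4-week mice, but the differences did not pass the test (0.24 ± 0.14, adjusted p = 0.335 at 6 weeks and 0.37 ± 0.13, adjusted p = 0.0717 at 8 weeks). Without 8-week replicate 2 the 8-week difference was 0.46 with an adjusted p of 0.0252.

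Hdac4 and Hdac5, the class IIa deacetylases most studied in muscle, were both higher in the older mice. Hdac4, which represses Mef2 targets and is known to accumulate when muscle loses its nerve, was at 33.4 and 32.7 CPM at 4 weeks, 52.2 and 46.8 CPM at 6 weeks, and 44.0, 49.8 and 50.2 CPM at 8 weeks. The lowest older mouse was thus well above both 4-week mice. The rise was 1.50-fold to 6 weeks (log2 0.58 ± 0.11, adjusted p = 0.0158) and 1.45-fold to 8 weeks (0.54 ± 0.10, adjusted p = 0.00548).

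Hdac5, which kinases move out of the nucleus during exercise, was at 13.7 and 15.9 CPM at 4 weeks. It was at 25.9 and 20.4 CPM at 6 weeks and at 20.7, 25.5 and 21.8 CPM at 8 weeks, with no overlap between 4 weeks and either later age. The rise was 1.56-fold to 6 weeks (0.65 ± 0.15, adjusted p = 0.0272) and 1.53-fold to 8 weeks (0.61 ± 0.14, adjusted p = 0.0112). Of the 8-week mice, replicate 2 had the highest Hdac5 and the lowest Mef2c. Over the 7 libraries the log2 levels of Mef2c and Hdac5 had r = 0.37, and a relation between them was not tested.

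Hdac7 and Hdac9 gave no call. Hdac7, best known in endothelium and thymocytes, was at 7.27 and 6.48 CPM at 4 weeks, 7.36 and 5.71 CPM at 6 weeks, and 5.34, 6.68 and 6.70 CPM at 8 weeks, so that all 3 ages overlapped (log2 −0.08 ± 0.17, adjusted p = 0.831 at 6 weeks and −0.14 ± 0.15, adjusted p = 0.563 at 8 weeks). Of 9 endothelial markers 6 were lower at 6 weeks. At 8 weeks 5 were lower and 1 was higher, Flt1, a receptor for Vegf (0.41 ± 0.12, adjusted p = 0.0370). Their summed level was 283 to 303 CPM at 4 weeks, 217.8 to 218.0 CPM at 6 weeks and 224 to 250.3 CPM at 8 weeks. Their part in the Hdac7 values was not tested. In bulk muscle, fewer cells of a type and less RNA per cell cannot be told apart.

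Hdac9, a repressor of Mef2 targets whose own gene Mef2 is known to activate, was at 9.66 and 7.97 CPM at 4 weeks, 10.3 and 9.89 CPM at 6 weeks, and 12.4, 9.70 and 8.76 CPM at 8 weeks. The 6-week mice lay just above the 4-week mice, and the 8-week mice spanned both. Neither difference from 4 weeks passed the test (0.20 ± 0.17, adjusted p = 0.539 and 0.22 ± 0.16, adjusted p = 0.346).

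**Figure D1:**
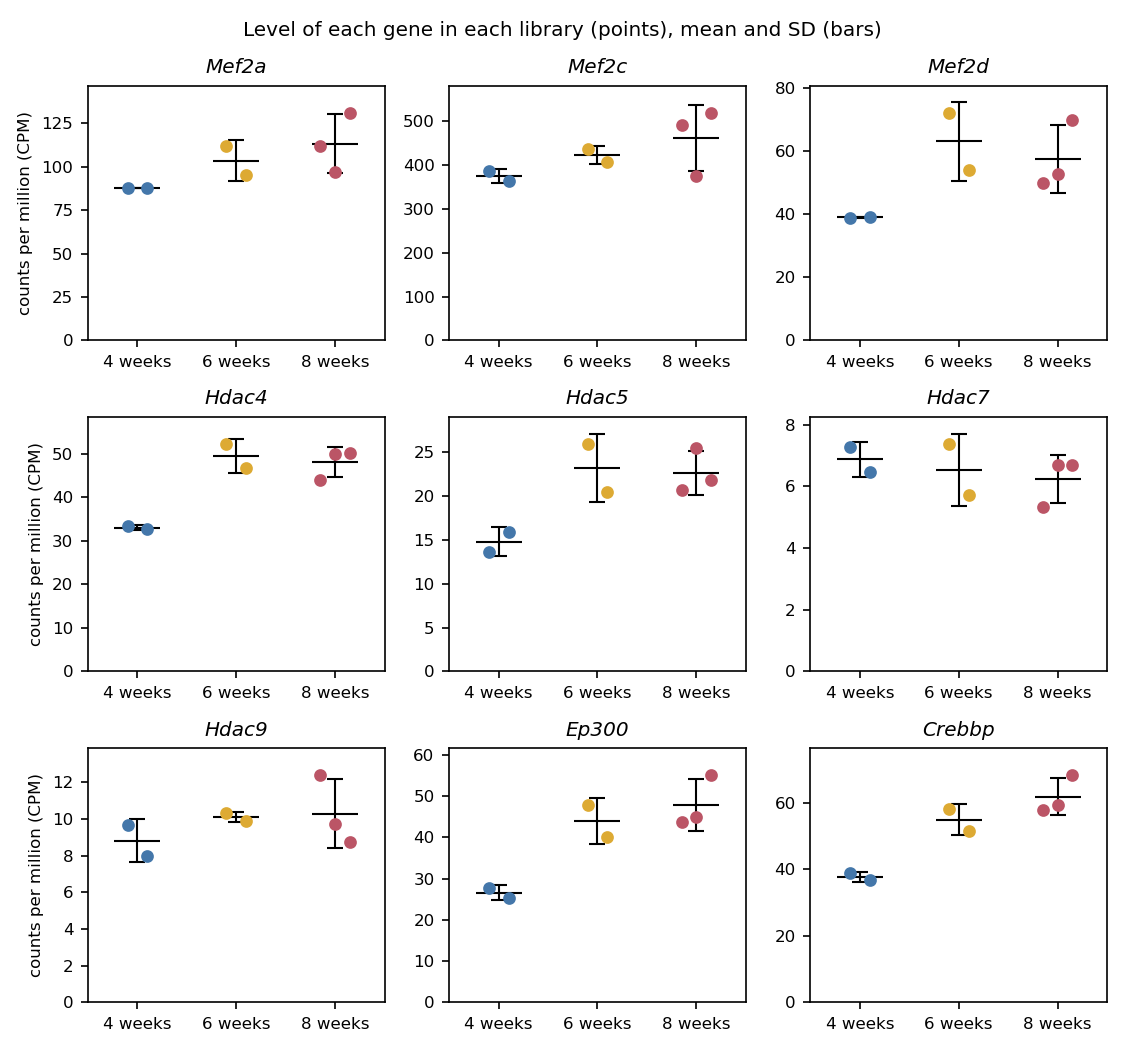
Level of each of the 9 genes in CPM (vertical axis, from 0) by age, with 1 point per mouse and bars for the mean and SD. Both 4-week points of Mef2d, Hdac4, Hdac5, Ep300 and Crebbp lie below every later point, while Hdac7 overlaps at all ages.

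Both acetyltransferase genes rose at both ages. Ep300 encodes p300, which acetylates histones and Mef2 itself, and was at 27.8 and 25.3 CPM at 4 weeks, 47.9 and 40.1 CPM at 6 weeks, and 43.6, 44.9 and 55.0 CPM at 8 weeks. All older mice were above both 4-week mice, by 1.66-fold at 6 weeks (log2 0.73 ± 0.14, adjusted p = 0.0158) and 1.80-fold at 8 weeks (0.85 ± 0.13, adjusted p = 0.00173). Crebbp encodes the closely related CBP, the coactivator of Creb.

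Crebbp was at 38.9 and 36.7 CPM at 4 weeks, 58.3 and 51.6 CPM at 6 weeks, and 57.9, 59.4 and 68.3 CPM at 8 weeks. It rose 1.45-fold to 6 weeks (0.54 ± 0.12, adjusted p = 0.0239) and 1.64-fold to 8 weeks (0.71 ± 0.11, adjusted p = 0.00180), again with no overlap. Among the 3 mice of 8 weeks, replicate 3 was highest in both acetyltransferase genes.

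In all, 5 of the 9 members were higher at 6 than at 4 weeks, where 3.15% of all genes tested were called higher, and 0 were lower. At 8 against 4 weeks the same 5 genes were higher, where 9.53% of all genes were. The median log2 difference of the 9 members was 0.54 in each of these comparisons, and that of all genes was −0.01 in each. Both comparisons use the same 4-week mice. In 8 of 9 members every 6-week mouse was above every 4-week mouse, as in 28.5% of all genes, and in 6 of 9 members every 8-week mouse was, as in 23.9% of all genes. The study named Hdac4, Hdac5, Ep300 and Crebbp from these samples, so the calls on them are not independent evidence, and Mef2d was followed here with its earlier values known. For Hdac4 the study also ran RT-qPCR in gastrocnemius, extensor digitorum longus and soleus at these ages. It reported similar trends across those muscles, and its RT-qPCR values were not used here.

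The calls from 4 to 6 weeks rested on few mice. Leaving out either 4-week mouse, or 6-week replicate 1, left 0 of the 5 below the threshold, with adjusted p from 0.0552 for Ep300 to 0.297 for Mef2d, although every fold change stayed positive. Without 6-week replicate 2 the calls stood for all but Crebbp (adjusted p = 0.0578). At 8 weeks Ep300 and Crebbp kept their calls with any 1 mouse left out, 2 of the 5 genes remained without 4-week replicate 2, and 3 remained without replicate 1. Mef2d also lost its 8-week call without 8-week replicate 3 (0.40, adjusted p = 0.0580). With library totals in place of TMM factors, Mef2d and Ep300 remained at 6 weeks, and Ep300 and Crebbp at 8 weeks, when the median of all genes moved to −0.20.

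**Figure D2:**
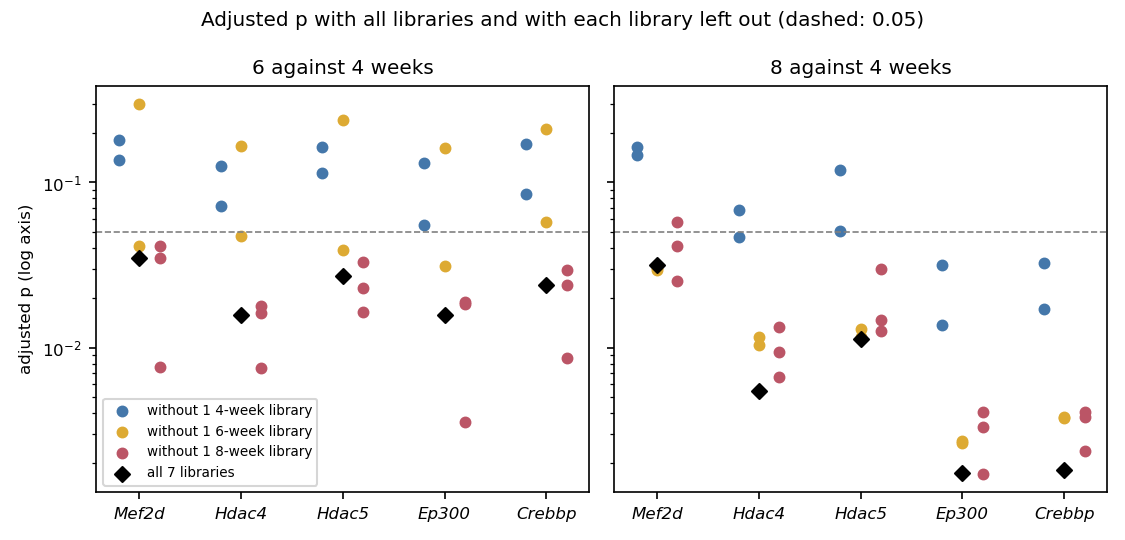
Adjusted p (log axis) of the 5 called genes with all 7 libraries (diamonds) and with each library left out (points, colored by the age of the library left out). Most points for 4-week libraries lie above the dashed line at 0.05, and all points of Ep300 and Crebbp at 8 weeks lie below it.

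An offset for transcript length and GC content moved Crebbp at 6 weeks to a log2 difference of 0.33 (adjusted p = 0.0411) and Hdac5 to 0.43 (adjusted p = 0.0515). With the same offset Mef2a passed the test at 8 weeks (0.35, adjusted p = 0.0332).

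From 6 to 8 weeks no member passed the test. Differences ran from −0.14 ± 0.15 on the log2 scale for Mef2d to 0.17 ± 0.11 for Crebbp, the 2 ages overlapped in all 9 genes, and the smallest adjusted p was 0.567. Of all genes 0.187% were called in this comparison, and of the members 0 had an unadjusted p under 0.05. DESeq2 and limma-voom each called 0 of the 9.

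Whether the change from 4 to 6 weeks differed from the change from 6 to 8 weeks was tested directly, by subtracting the second from the first. The difference was 0.83 ± 0.28 on the log2 scale for Mef2d, 0.68 ± 0.24 for Hdac5, 0.62 ± 0.19 for Hdac4 and 0.61 ± 0.23 for Ep300, all with an unadjusted p under 0.05. None passed the adjustment (smallest adjusted p = 0.234, for Hdac4), nor did the other members. Of all genes 0.0935% were called, and DESeq2 and limma-voom called 0 of the 9 members. A larger step before 6 weeks than after it was therefore not shown for any member.

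**Figure D3:**
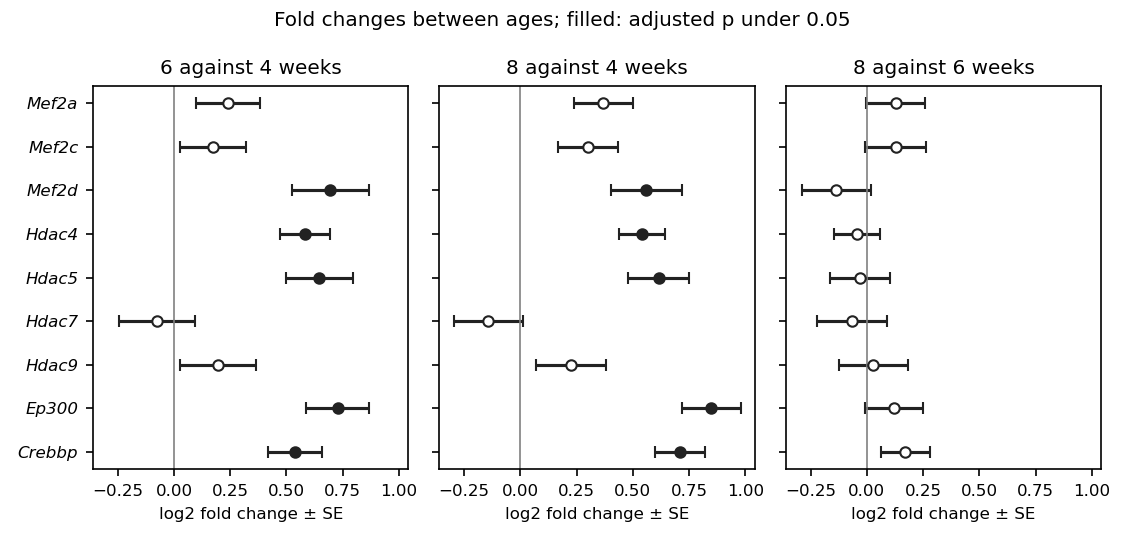
Log2 fold change with its SE (horizontal axis) of each member in the 3 comparisons of ages, with filled points for an adjusted p under 0.05. The 5 filled points in each comparison with 4 weeks lie between 0.54 and 0.85, and all points of 8 against 6 weeks lie within 0.17 of 0.

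Levels of different genes were compared per kilobase of the longest annotated transcript, as a description. Mef2c led with a mean of 67.7 CPM per kb over the 7 libraries, followed by Mef2a at 18.6 and Mef2d at 9.94 CPM per kb. The ranges of these 3 genes did not overlap. Hdac4 (5.45 CPM per kb), Crebbp (4.90), Ep300 (4.25) and Hdac5 (3.80) followed with neighbors whose ranges overlapped. Hdac7 (1.26 CPM per kb) and Hdac9 (1.24) were lowest, overlapped each other and lay below the other 7 in every library. With the union of all exons as the length, Mef2d (8.97 CPM per kb) stood above Mef2a (7.03) with overlapping ranges, and Crebbp (3.92), Ep300 (2.85), Hdac4 (2.79) and Hdac5 (2.34) followed with overlapping neighbors. Hdac4 then stood behind Crebbp and Ep300, so the order within the Mef2 genes and among those 4 depends on the transcript assumed.

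Within a library the make-up of a family is free of the scaling between libraries. Mef2c gave 67.4% to 72.7% of the summed Mef2 level per kb in every mouse, and Mef2a gave 18.7% to 20.1%. The share of Mef2d was 8.52% and 8.92% at 4 weeks and 12.9% and 10.9% at 6 weeks. It was 8.57%, 11.2% and 10.8% at 8 weeks, so that 8-week replicate 1 fell between the 4-week mice. With the union of exons as the length, Mef2c gave 58.5% to 66.3%, Mef2d 17.6% to 25.3% and Mef2a 15.6% to 16.8%, so that Mef2d stood above Mef2a in every library. Among the class IIa genes Hdac7 gave 15.1% and 13.5% at 4 weeks and 8.69% to 10.3% in all older mice, beside the higher Hdac4 and Hdac5.

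The raw counts of repressor and activator genes can be set against each other in the same way. There were 92.0 and 99.3 counts of Hdac4 and Hdac5 together per 1000 counts of the Mef2 genes at 4 weeks, and 126 and 121 at 6 weeks. At 8 weeks the values were 99.4, 144 and 100.3, of which the high one was replicate 2. Ep300 and Crebbp together gave 130.4 and 127 counts per 1000 Mef2 counts at 4 weeks, 171 and 165 at 6 weeks, and 156, 199 and 172 at 8 weeks. The acetyltransferase ratio was thus above both 4-week values in every older mouse, and the deacetylase ratio was at 8 weeks only slightly above the higher 4-week value in replicates 1 and 3. These ratios were not tested.

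**Figure D4:**
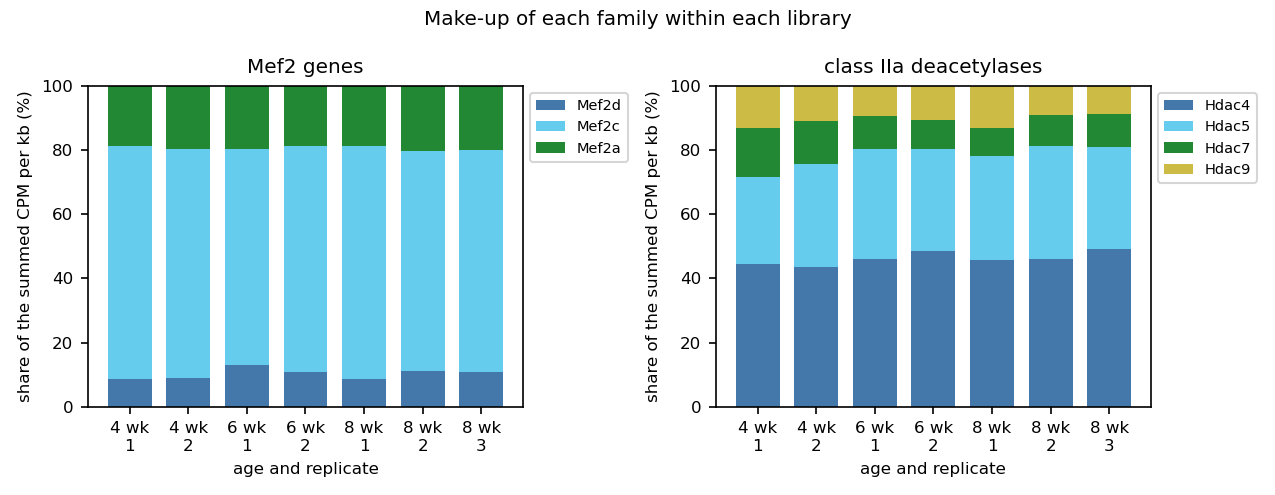
Share of each gene in the summed CPM per kb of the longest transcript in its family (vertical axis, percent) in each of the 7 libraries (age and replicate). Mef2c takes 67.4% to 72.7% of the Mef2 level in every library, and the Hdac7 share is largest in both 4-week libraries.

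Over the 7 libraries the log2 levels of Ep300 and Crebbp correlated with r = 0.99, those of Hdac4 and Ep300 with r = 0.96, those of Hdac4 and Hdac5 with r = 0.94, and those of Mef2a and Mef2c with r = 0.93. Hdac7 had r between −0.47 and 0.12 with the other 8 members. The points share the ages and the library depth, so these values describe a common course only. Among 5269 other genes at 10 CPM or more, the pattern most like Ep300 was that of Mtss1l and Mylk4 (r = 0.998 and 0.996), and the most like Crebbp that of Sorl1 (r = 0.997) and Kmt2a (r = 0.99). Hdac4 was closest to Ipo4 and Fbxo31, Hdac5 to Des and Oplah, Mef2d to Mybbp1a and Cand2, Mef2a to Kmt2e and Eps15, and Mef2c to Usp53 and Spast, with r of 0.99 in each case. Hdac7 was closest to Hnrnpab (r = 0.96) and Traf7 (r = 0.92), and Hdac9 to Tlk2 and Arl4a (r = 0.95 each).

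The other genes of the pathway are given next, read against 3.15% of all genes higher and 3.76% lower at 6 weeks, and 9.53% higher and 8.95% lower at 8 weeks. Of the 11 list genes named as called at 6 weeks, 1 kept its call without 4-week replicate 1 (Chrnb1), 0 without 4-week replicate 2 or 6-week replicate 1, and 2 without 6-week replicate 2 (Fbxo32 and Gadd45a). Of the 26 named at 8 weeks, 14 kept theirs without 4-week replicate 1, 7 without 4-week replicate 2, and 22 or 23 without any other library, and no sign turned. Those 7, called whichever library was left out, were Tead1, Myog, Mamstr, Crem, Fbxo32, Gadd45a and Atf3. Of 14 partners of Mef2, 0 were called at 6 weeks by edgeR, with 6 at an unadjusted p under 0.05, 2 called by DESeq2 and 0 by limma-voom. At 8 weeks 3 were higher and 2 lower. Tead1, a factor of the Hippo pathway that binds muscle promoters, rose by 1.05 ± 0.14 on the log2 scale (adjusted p = 0.000847). Nfatc3 rose by 0.43 ± 0.09 and Srf by 0.35 ± 0.10. Myog, the myogenic factor of late differentiation, fell by 2.03 ± 0.28 (adjusted p = 0.000976) and Mamstr, a coactivator of Mef2, fell by 0.90 ± 0.14 (adjusted p = 0.00146).

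Of 13 genes known as Mef2 targets, Des, which encodes the intermediate filament desmin, was higher at 6 weeks (0.55 ± 0.15, adjusted p = 0.0466) and at 8 weeks (0.53 ± 0.14, adjusted p = 0.0201). The glucose transporter gene Slc2a4 was higher at 8 weeks (0.44 ± 0.13, adjusted p = 0.0371), and the muscle kinase gene Srpk3 was lower (−0.52 ± 0.11, adjusted p = 0.00992). Without 4-week replicate 2 the value of Slc2a4 was 0.28 (adjusted p = 0.336). The other 12 at 6 weeks and 10 at 8 weeks did not pass, and the median of the list was 0.07 and −0.10.

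Kinases that send class IIa deacetylases out of the nucleus gave 0 calls by edgeR among 19 tested at 6 weeks, with 6 at an unadjusted p under 0.05, 1 called by DESeq2 and 0 by limma-voom. At 8 weeks 4 were higher and 1 lower. Camk2b (0.55 ± 0.14, adjusted p = 0.0175), Camk2g (0.37 ± 0.09, adjusted p = 0.0190) and Sik3 (0.50 ± 0.14, adjusted p = 0.0276) were higher, as was Sik2. Sik1, whose gene responds to activity, was lower (−0.78 ± 0.20, adjusted p = 0.0210), and stood at 8.14 and 9.94 CPM in 8-week replicates 1 and 3 and 12.7 CPM in replicate 2. Without 4-week replicate 2 the difference of Sik1 was −0.51 (adjusted p = 0.233).

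Among 11 chaperone, export and phosphatase genes, the chaperone gene Ywhaq was lower at 6 weeks (−0.66 ± 0.18, adjusted p = 0.0476) and its relative Ywhag was higher at 8 weeks (0.52 ± 0.11, adjusted p = 0.0102). Of 9 corepressor genes, Gps2, a subunit of the complex that carries the catalytic Hdac3, was higher at both ages (0.83 ± 0.21, adjusted p = 0.0353 and 0.79 ± 0.19, adjusted p = 0.0168). Of the 6 other zinc-dependent deacetylase genes 0 were called at either age by edgeR, DESeq2 or limma-voom, with 1 at 6 weeks and 0 at 8 weeks at an unadjusted p under 0.05, and their medians were −0.04 and −0.14.

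Other acetyltransferase genes were called higher in 2 of 11 cases at 6 weeks and in 7 of 11 at 8 weeks, and 0 were lower, with medians of 0.26 and 0.32. Kat8, which acetylates histone H4, rose at 6 weeks (0.60 ± 0.14, adjusted p = 0.0264) and Ncoa3, a nuclear receptor coactivator, at 6 weeks (0.44 ± 0.12, adjusted p = 0.0450) and at 8 weeks (0.52 ± 0.11, adjusted p = 0.00765). At 8 weeks Kat6a (0.46 ± 0.10, adjusted p = 0.0112) and Ncoa1 (0.42 ± 0.11, adjusted p = 0.0234) were also higher. Of 9 tested Creb factors and partners of p300, the coactivator gene Crtc3 was higher at both ages (0.55 ± 0.14, adjusted p = 0.0354 and 0.59 ± 0.13, adjusted p = 0.00882). Crem, which encodes activators and repressors of the Creb family, was lower at both (−0.73 ± 0.13, adjusted p = 0.0129 and −0.78 ± 0.12, adjusted p = 0.00172).

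Genes that answer to Hdac4 in denervated muscle moved both ways. Fbxo32, an atrophy ubiquitin ligase, rose by 0.98 ± 0.17 at 6 weeks (adjusted p = 0.00968) and by 1.79 ± 0.16 at 8 weeks (adjusted p = 0.000104). Dach2, a corepressor that Hdac4 is known to lower after denervation, rose at 8 weeks from a low level (1.72 ± 0.33, adjusted p = 0.00576), with 0.875 and 0.746 CPM at 4 weeks and 1.82 to 3.82 CPM at 8 weeks. Gadd45a, a stress gene, was lower at both ages (−0.995 ± 0.19, adjusted p = 0.0158 and −1.24 ± 0.18, adjusted p = 0.00110).

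The acetylcholine receptor gene Chrnb1 was also lower at both ages (−0.62 ± 0.16, adjusted p = 0.0417 and −0.86 ± 0.14, adjusted p = 0.00271), and Chrna1 was lower at 8 weeks (−0.58 ± 0.18, adjusted p = 0.0424). Chrna1 rested on 4-week replicate 2, without which its 8-week value was −0.20 (adjusted p = 0.514), and without that mouse Chrnb1 was at −0.39 at 6 weeks (adjusted p = 0.341). In total 1 of 7 tested genes was higher and 2 lower at 6 weeks, and 2 were higher and 3 lower at 8 weeks. Of the 13 immediate early and heat shock genes, Klf4 was higher at 6 weeks (0.86 ± 0.21, adjusted p = 0.0345), and Atf3 (−2.57 ± 0.49, adjusted p = 0.00528) and Egr2 (−1.28 ± 0.34, adjusted p = 0.0250) were lower at 8 weeks. Atf3 was at 5.14 CPM in 8-week replicate 2 and at 1.35 and 1.22 CPM in the others, and without replicate 2 its difference was −3.57 (adjusted p = 0.00163).

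**Figure D5:**
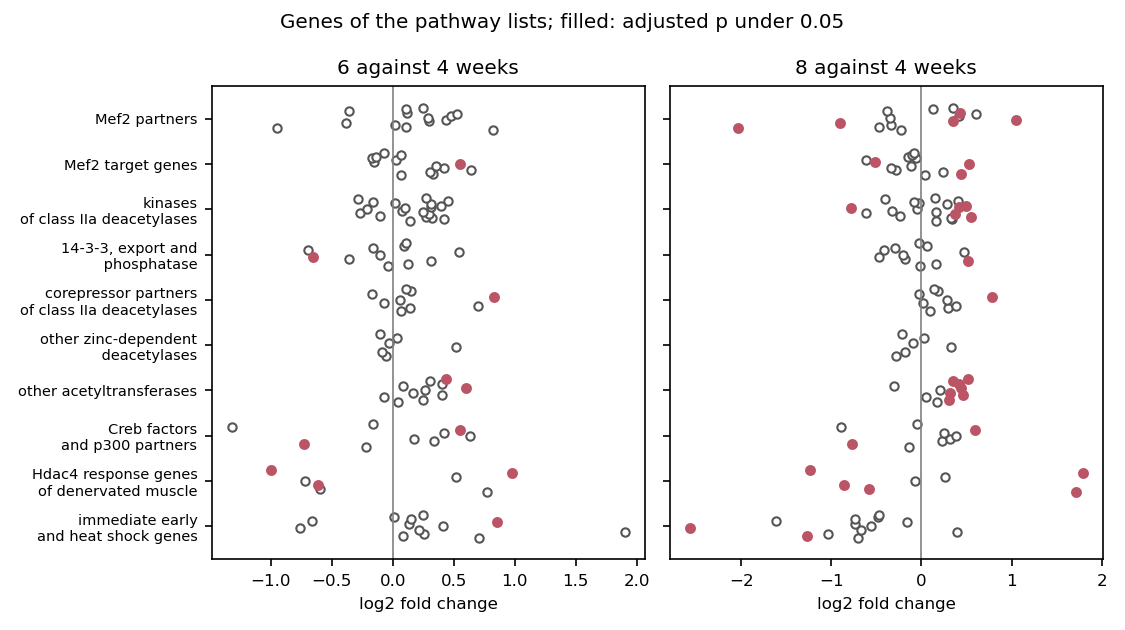
Log2 fold change (horizontal axis) of each tested gene of the 10 pathway lists at 6 against 4 weeks and 8 against 4 weeks, with filled points for an adjusted p under 0.05. The 7 filled acetyltransferase genes at 8 weeks all lie to the right of 0, and the filled genes of the Hdac4 list lie on both sides.

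Several markers of cells outside the fiber moved with age beside the members. The 6 fibroblast markers summed to 2742 to 2845 CPM at 4 weeks, 1433 to 1870 CPM at 6 weeks and 960 to 1350 CPM at 8 weeks, with 3 of 6 lower at 6 weeks and 4 of 6 lower at 8 weeks. The collagen genes Col1a1 and Col3a1 made most of this sum, with means of 1121 and 1229 CPM at 4 weeks. Dcn and Pdgfra were called at neither age, and Dcn had means of 333, 342 and 365 CPM at 4, 6 and 8 weeks. The 4 erythroid markers summed to 123 to 149 CPM at 4 weeks and to 62.2 to 90.5 CPM in all older mice, with 3 lower at 6 weeks and all 4 at 8 weeks. The 6 macrophage markers summed to 87.6 to 98.9 CPM at 4 weeks and 51.0 to 74.7 CPM later, with 1 lower at 6 weeks and 2 at 8 weeks. The 6 smooth muscle and pericyte markers summed to 442 to 459 CPM at 4 weeks and 308 to 366 CPM later, with 1 lower at 6 weeks, and 2 lower and 1 higher (Myh11) at 8 weeks. Of 5 satellite cell markers 2 were lower at 8 weeks, Sdc4 and Chrdl2, the latter from a mean of 0.66 CPM to 0.26 CPM. Pax7 did not differ at 8 weeks (0.01 ± 0.22, adjusted p = 0.983), with means of 1.93, 1.93 and 1.94 CPM at 4, 6 and 8 weeks. The 4 adipocyte markers summed to 14.6 to 17.0 CPM at 4 weeks, 13.5 to 21.7 CPM at 6 weeks and 10.3 to 41.4 CPM at 8 weeks. Lep, the leptin gene, was called higher at 8 weeks by edgeR (2.54 ± 0.67, adjusted p = 0.0231). It was at 6.15, 3.94 and 0.738 CPM in 8-week replicates 1, 2 and 3, against 0.663 and 0.587 CPM at 4 weeks. Replicate 3 thus lay near the 4-week mice. At 8 weeks DESeq2 called 1 adipocyte marker higher and limma-voom 0. The summed fast fiber markers were 71987 to 78212 CPM at 4 weeks, 79636 to 79653 CPM at 6 weeks and 84987 to 96365 CPM at 8 weeks. Of these 9 markers 0 were called at 6 weeks by edgeR, with 2 at an unadjusted p under 0.05, 1 called lower by DESeq2 and 0 by limma-voom. At 8 weeks the myosin gene Myh4, which made the largest share of the sum, and the calcium pump gene Atp2a1 were higher, and the myosin light chain gene Mylpf was lower (−0.78 ± 0.14, adjusted p = 0.00381). Of 7 slow fiber markers Tnni1 and Tnnt1 were lower at 8 weeks, mainly in replicates 1 and 3. Tnni1 was at 7.84 and 8.18 CPM there and at 15.8 CPM in replicate 2, against 18.8 and 23.9 CPM at 4 weeks. Tnnt1 was at 12.6 and 13.7 CPM there and at 24.5 CPM in replicate 2, against 25.9 and 33.2 CPM at 4 weeks. The part of these shifts in the rise of the 5 members was not tested.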

How the data were processed

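Total RNA of gastrocnemius, depleted of ribosomal RNA, was sequenced in 7 libraries with a strand-specific protocol. Per the study's methods, reads were trimmed and mapped to the mouse genome with STAR, and the authors deposited whole-number counts per gene name, made with featureCounts on exons with the strand kept. The authors' normalized values and their own fold changes, p-values and pathway results were not used.

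All tests used R 4.3.3 and edgeR 4.0.16. Genes were kept by filterByExpr with a minimum count of 10, which left 14976, and scaled by TMM. A single quasi-likelihood model of the 7 libraries held a mean for each age, and F tests compared ages. Adjusted p-values are Benjamini-Hochberg values across the genes kept, with calls under 0.05. Standard errors were taken as the absolute log2 fold change over the root of F. CPM are TMM-scaled counts of a library relative to its size. Single-library log2 values used a prior count of 2. The code was tested on simulated data. Python 3.11.15 and matplotlib 3.10.9 served for tables and plots. Coordinates are from GENCODE and promoters from RefSeq, both of GRCm38.

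The members and lists were chosen with earlier results of these data known. Named genes were all 9 members in each comparison; from each pathway list up to 3 higher and 3 lower genes with the smallest p among those called at 6 or 8 against 4 weeks; and for each member the 2 most correlated genes of at least 10 CPM. Sik2, outside this rule, was named after its value was seen. Single genes of the marker lists also fall outside it, and their calls were not followed with libraries left out. Replicate numbers did not pair the libraries and were used only as a block in the alternatives. Symbols that spreadsheet software had made into dates (26, with 0.0532% of counts) were not named. The result of 1 marker list is not reported here.

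Alternatives covered the scaling (DESeq2 1.42.0 size factors, upper quartile factors, totals), the test (limma-voom with limma 3.58.1, the DESeq2 Wald test, robust edgeR), the filter (none, or 10 counts or more in all libraries), the genes and libraries entered (the 10 most counted genes left out, only the ages compared, each library omitted), a replicate block, an offset for length and GC content, a threshold of 0.01 and the union of exons as the length. The fit with replicate 2 as the only 8-week library was chosen after seeing the data.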

Additional observations from a re-analysis of the deposited data

How the results depend on the processing

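Of 5 members called at 6 against 4 weeks, 2 were called with library totals and 0 at an adjusted p under 0.01. Of 5 called at 8 against 4 weeks, 2 were called with library totals and 3 at 0.01. Leaving out 1 library gave 0 to 5 called members at 6 weeks and 2 to 7 at 8 weeks. For 8 against 6 weeks every setting gave 0. For the change from 4 to 6 minus the change from 6 to 8 weeks, the replicate block with the length and GC offset called 1 member, Mef2d, and every other setting 0. The cause of these shifts was not tested. Library totals moved the median of all genes to −0.20 at 8 against 4 weeks and −0.17 at 8 against 6 weeks.

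The replicate numbers did not pair the libraries: correlations of same-numbered deviations ran from −0.09 to 0.04. The replicate block called 5 members at 6 weeks and 4 at 8 weeks, where Mef2d had an adjusted p of 0.0551, and 0 at 8 against 6 weeks. It changed the count of all genes called from 1034 to 1530 at 6 against 4 weeks, from 2768 to 2316 at 8 against 4 weeks and from 28 to 107 at 8 against 6 weeks.

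Signs turned only for values that were not called. Without 1 library, Hdac7 ranged from −0.27 to 0.10 on the log2 scale at 6 against 4 weeks. At 8 against 6 weeks the ranges were −0.34 to 0.082 for Mef2d, −0.13 to 0.036 for Hdac4, −0.20 to 0.15 for Hdac5, −0.25 to 0.12 for Hdac7, −0.13 to 0.13 for Hdac9 and −0.014 to 0.25 for Ep300. In the same comparison library totals gave −0.064 for Mef2a, −0.069 for Mef2c, −0.16 for Hdac9, −0.064 for Ep300 and −0.012 for Crebbp. The length and GC offset gave 0.037 for Hdac5, 0.0065 for Hdac7 and −0.0061 for Hdac9, and with the replicate block it gave −0.023 for Mef2a, −0.012 for Mef2c, 0.033 for Hdac4 and 0.090 for Hdac5. With 8-week replicate 2 as the only 8-week library, the values were −0.10 for Mef2a, −0.18 for Mef2c, 0.0045 for Hdac4, 0.13 for Hdac5, 0.029 for Hdac7 and −0.065 for Hdac9.

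With the union of exons as the length, mean levels were 7.03 CPM per kb for Mef2a, 27.0 for Mef2c, 8.97 for Mef2d, 2.79 for Hdac4, 2.34 for Hdac5, 0.963 for Hdac7, 0.669 for Hdac9, 2.85 for Ep300 and 3.92 for Crebbp. With 2 or 3 mice per age and 4 residual degrees of freedom, differences of the size seen in Mef2a and Mef2c crossed the threshold with some libraries and not with others. The named genes of the pathway lists turned sign in 0 of 231 values at 6 weeks and 0 of 546 at 8 weeks, over all alternatives.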
